A study of Homo sapiens with 4 samples.

Results

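The genes described here encode the machinery that carries proteins into mitochondria, read in U937 cells after shikonin or its solvent. They were taken as every gene whose symbol starts with TIMM or TOMM followed by a digit, together with 11 further genes named for the same machinery (TIMMDC1, GRPEL1, GRPEL2, PMPCA, PMPCB, SAMM50, MTX1, MTX2, CHCHD4, PAM16 and DNAJC19). Single-gene probe sets existed for 33 such genes, 59 probe sets in all, and 32 genes had at least 1 probe set bright enough to test, of 13554 genes tested on the arrays. U937 is an established human line of monocytic character that was grown from a lymphoma. One group of 2 samples received DMSO and the other group of 2 samples received shikonin, a naphthoquinone of plant origin, at 100 nM for 3 h. No treatment time is stated for the DMSO samples, and no genetic change separates the groups. Each sample was read on its own Affymetrix array, and nothing says that the samples came from separate cultures, so p-values may reflect technical spread alone.

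Nearly all mitochondrial proteins are made in the cytosol and must cross the mitochondrial membranes to reach their place. The TOM complex of the outer membrane is the common gate, and from there proteins are sorted to the SAM complex (beta-barrel proteins of the outer membrane), to the MIA pathway and small TIM chaperones of the intermembrane space, to TIM22 (carrier proteins of the inner membrane) or to TIM23 (proteins with a cleavable presequence). An HSP70 motor on the matrix side pulls the presequence proteins in, and a processing peptidase cuts off the presequence. Monocytic cells use this machinery as all nucleated cells do.

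After shikonin, 7 of the 32 import genes were called higher and 2 lower, at a limma adjusted p under 0.05. The genes called higher were TOMM40 (the outer membrane channel), SAMM50 (the core of SAM), TIMM8B, TIMM10 and TIMM13 (chaperones of the intermembrane space), and TIMM17A and TIMM21 (subunits of TIM23). The genes called lower were GRPEL1, which recharges the HSP70 of the import motor, and MTX2, an outer subunit of SAM. All 9 changes were below 1.5-fold on the brightest probe set, from a log2 change of -0.37 for GRPEL1 to 0.43 for TOMM40. Over all genes tested, 5.05% were called higher and 6.65% lower. The import genes stood at 21.9% and 6.25%, so the share called lower was near the background.

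Import genes are bright, and bright genes were called more often. Among the 7445 genes at least as bright as the dimmest import gene, 8.30% were called higher and 10.3% lower. Among the 2711 genes at least as bright as the median import gene, these shares were 11.3% and 8.63%. The median log2 change of the import genes was 0.12, against 0.003 over all genes, and 26 of 32 lay above 0, against 50.5% of all genes. In 19 import genes both shikonin arrays lay above both DMSO arrays and in 5 both lay below, where 28.2% and 27.3% of all genes did so. The median, the signs and the overlap counts were set only against all genes, whose median signal was 580.8 against 2357 for the import genes. Whether equally bright genes lean the same way was not tested. No set test was made on these counts, and they describe these 4 arrays. The members were chosen with earlier results of these data known.

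Array medians ran from 60.5 to 63.7, with a correlation of log2 values of 0.980 within each group and 0.972 to 0.974 between groups. HMOX1, the haem-degrading enzyme known to respond to electrophiles such as shikonin, went from 374 and 459 in DMSO to 23424 and 24370 after shikonin, so the treated arrays stood apart from the controls. Of 14 monocytic and granule markers 12 had a single-gene probe set, and 11 of these exceeded the 40th percentile of every array (FCGR1A did not). Their summed signal was 83641 to 91276 per array, against 128 to 182 for 5 T cell markers, 615 to 688 for 4 B cell markers, 95.9 to 143 for 2 erythroid markers and 378 to 519 for 6 fibroblast and epithelial markers. Of these other lists, CD2, CD79A, PAX5, HBB, COL1A1, DCN and KRT8 exceeded that percentile on all arrays, while CD3D, CD3E, CD3G, CD8A, CD79B, MS4A1, EPB42, COL1A2, EPCAM and KRT18 did not. Because the arrays read bulk RNA scaled to a common level, less RNA per cell and fewer cells that express a gene cannot be told apart.

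**Figure D1:**
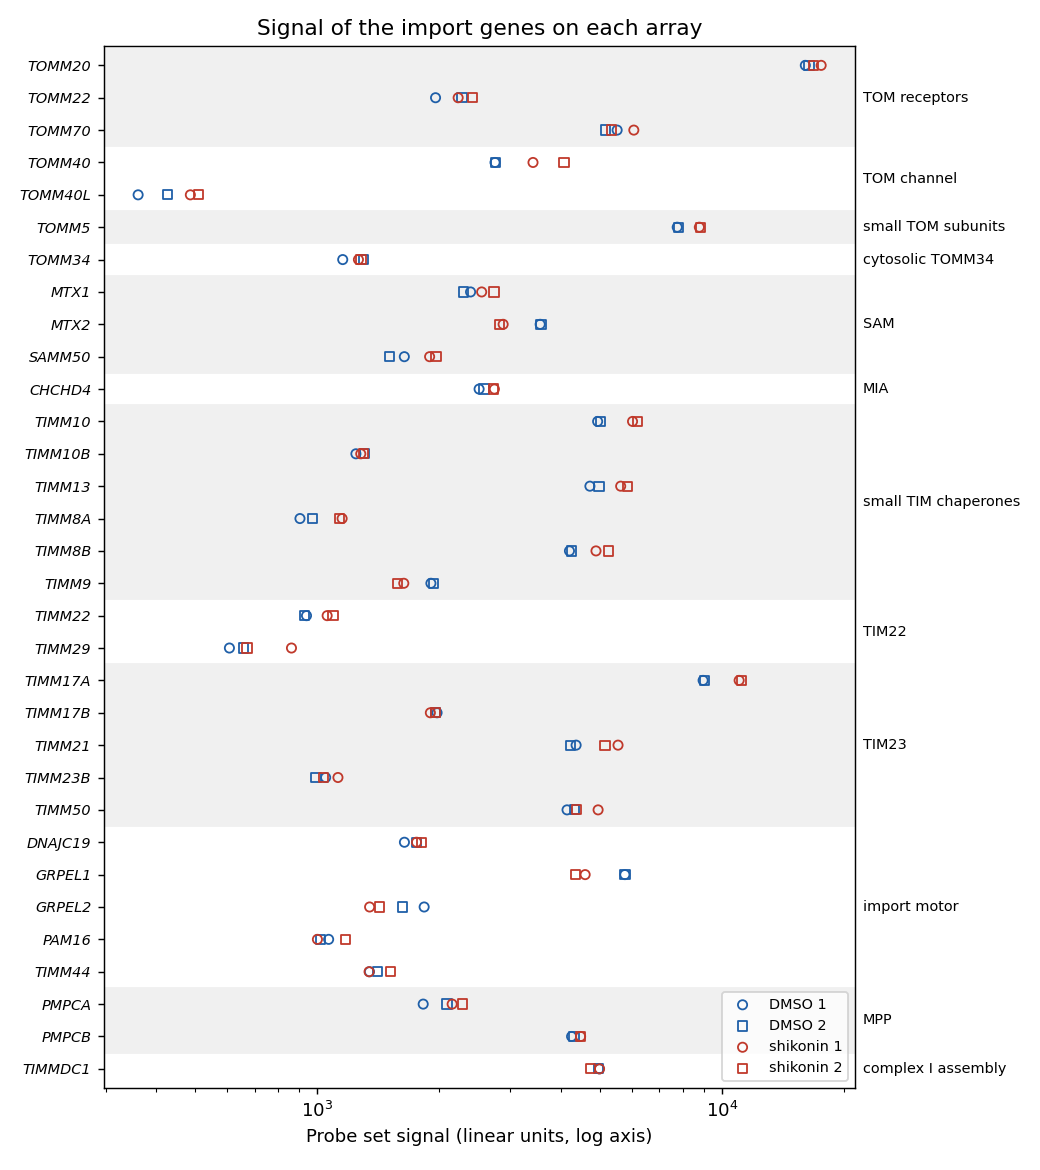
Probe set signal (linear units on a log axis) of the 32 import genes on each array, brightest probe set per gene, ordered by role; open circles and squares are replicates 1 and 2, blue for DMSO and red for shikonin. The red symbols of TOMM40, TIMM10 and TIMM17A lie to the right of both blue ones, those of GRPEL1, GRPEL2, MTX2 and TIMM9 to the left.

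Within the TOM complex the channel gene TOMM40 was called higher and the receptor genes were not called. The difference between TOMM40 and the receptor genes was not tested. TOMM40 forms the pore through which nearly all imported proteins pass, and its signals were 2749 and 2762 in DMSO and 3412 and 4071 after shikonin. Both shikonin arrays were higher than both DMSO arrays, and the shikonin arrays differed more from each other than the DMSO arrays did. TOMM40 was 1.35-fold higher (log2 change 0.43, SE 0.085, adjusted p = 0.0147). Without shikonin 2, the brighter shikonin array, its log2 change was 0.31 and it did not pass (adjusted p = 0.064). TOMM40L, a paralogue of the channel and the dimmest import gene, had signals of 361 and 427 against 486 and 509. These groups did not overlap either, but the change of 0.33 did not pass (adjusted p = 0.158).

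The receptors TOMM20, which binds presequences, TOMM22, which joins receptors to the channel, and TOMM70, which takes carrier proteins from chaperones, had log2 changes of 0.08, 0.14 and 0.09. TOMM20 was the brightest import gene, with 16059 and 16408 in DMSO and 17572 and 16854 after shikonin. Its 95% interval ran from -0.03 to 0.19, and under quantile normalization its change was -0.01. The DMSO and shikonin arrays overlapped for TOMM22 and TOMM70 on the brightest probe sets. The dimmer probe sets of TOMM22 did not overlap and changed by 0.23 and 0.52 without passing; the mean of all its probe sets gave 0.30, and leaving out 1 array moved the value of the brightest between 0.03 and 0.24. TOMM5, a small subunit that stabilises the complex, had 7749 and 7807 in DMSO and 8788 and 8858 after shikonin. Its groups were clearly apart, yet the small difference (log2 change 0.18, SE 0.051) missed the threshold at an adjusted p of 0.0583. It passed under a filter that removed 60% of probe sets (0.0405) or with replicate number as a block (0.0114). It did not pass with no filter on dim probe sets (0.129), and under quantile normalization the change was only 0.10 (adjusted p = 0.185). TOMM34, a cytosolic co-chaperone that shares only the name and helps deliver precursors, lay at 0.05 with overlapping groups. The small subunits TOMM6 and TOMM7 were read only by probe sets that list another gene too, so neither has a value of its own; the shared probe sets of TOMM6 and PRICKLE4 changed by 0.16 and 0.17 and that of TOMM7 and C4orf46 by 0.03, and none passed.

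The SAM complex folds beta-barrel proteins, among them TOMM40 itself, into the outer membrane, and its called members went in opposite directions. SAMM50, the barrel at its core, had signals of 1641 and 1505 in DMSO and 1895 and 1964 after shikonin. Both shikonin arrays were the higher, by a log2 change of 0.29 (SE 0.077, adjusted p = 0.0466). This call sat at the threshold: it was lost without DMSO 1 (0.0529), DMSO 2 (0.187), shikonin 1 (0.103) or shikonin 2 (0.168), while the log2 change stayed between 0.23 and 0.36. It was also lost with no filter on dim probe sets (0.0833), or with the mean of its tested probe sets (0.0552). MTX2, a metaxin that caps SAM on the cytosolic face, had 3554 and 3569 in DMSO and 2879 and 2822 after shikonin. Its replicates lay close together and the groups far apart, with a log2 change of -0.32 (SE 0.061, adjusted p = 0.0130). Without shikonin 2 the change was -0.31 and the adjusted p 0.060. MTX1, the metaxin that pairs with MTX2, lay on the other side of 0 (2392 and 2298 against 2548 and 2733; log2 change 0.17) and did not pass (adjusted p = 0.172). The difference between MTX1 and MTX2 was not tested.

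The small TIM chaperones are shuttles of the intermembrane space that work as hexamers, TIMM9 with TIMM10 and TIMM8A or TIMM8B with TIMM13. Of 6 tested, 3 were called higher and none lower. This share was not tested against the 11.3% called higher among genes at least as bright as the median import gene. TIMM10 had signals of 4928 and 5004 in DMSO and 6010 and 6171 after shikonin, which is 1.23-fold higher (log2 change 0.29, SE 0.055, adjusted p = 0.0124). Its second probe set showed the same pattern (2257 and 2163 against 2707 and 3054; log2 change 0.38, adjusted p = 0.0173). On the first, the call was lost without shikonin 2 (log2 change 0.27, adjusted p = 0.070). TIMM9, the partner of TIMM10 in the carrier chaperone, went the other way. It had 1909 and 1941 in DMSO and 1636 and 1579 after shikonin, so that both groups were tight and did not overlap. At a log2 change of -0.26 (SE 0.072) TIMM9 missed the threshold by little (adjusted p = 0.0554). It passed under a stricter filter that removed 60% of probe sets (0.0343), with gene means (0.0386) or with replicate number as a block (0.0296). It did not pass with no filter on dim probe sets (0.0861) or under quantile normalization (0.0771).

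TIMM13 and TIMM8B, which form a chaperone together, were higher by similar amounts. TIMM13 had 4716 and 4964 in DMSO and 5618 and 5834 after shikonin (log2 change 0.24, SE 0.059, adjusted p = 0.0348). TIMM8B had 4198 and 4253 against 4882 and 5239 (log2 change 0.26, SE 0.061, adjusted p = 0.0312). Neither gene's groups overlapped, but both calls were close to the threshold. The call of TIMM13 was lost without DMSO 1 (0.138), DMSO 2 (0.0515), shikonin 1 (0.0841) or shikonin 2 (0.164), and that of TIMM8B without DMSO 1 (0.0948), DMSO 2 (0.0754) or shikonin 2 (0.176). With no filter on dim probe sets neither passed (0.0803 and 0.0722), nor did TIMM13 under quantile normalization (0.0569) or TIMM8B as the mean of its probe sets (0.117). The further probe set of TIMM8B changed by 0.08 with overlapping groups and did not pass, and that of TIMM13 was too dim to test. TIMM8A, the X-linked paralogue of TIMM8B whose loss causes a deafness and dystonia syndrome, had 906 and 975 against 1152 and 1133. Its log2 change of 0.28 was as large as that of TIMM8B but did not pass (adjusted p = 0.0817). TIMM10B, which ties the chaperones to TIM22, lay at 0.02 on both of its probe sets. CHCHD4, the oxidoreductase of the MIA pathway that traps these small proteins by forming their disulfides, had 2511 and 2583 against 2739 and 2723. Its groups did not overlap, but the log2 change was 0.10 and did not pass (95% interval -0.04 to 0.25).

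**Figure D2:**
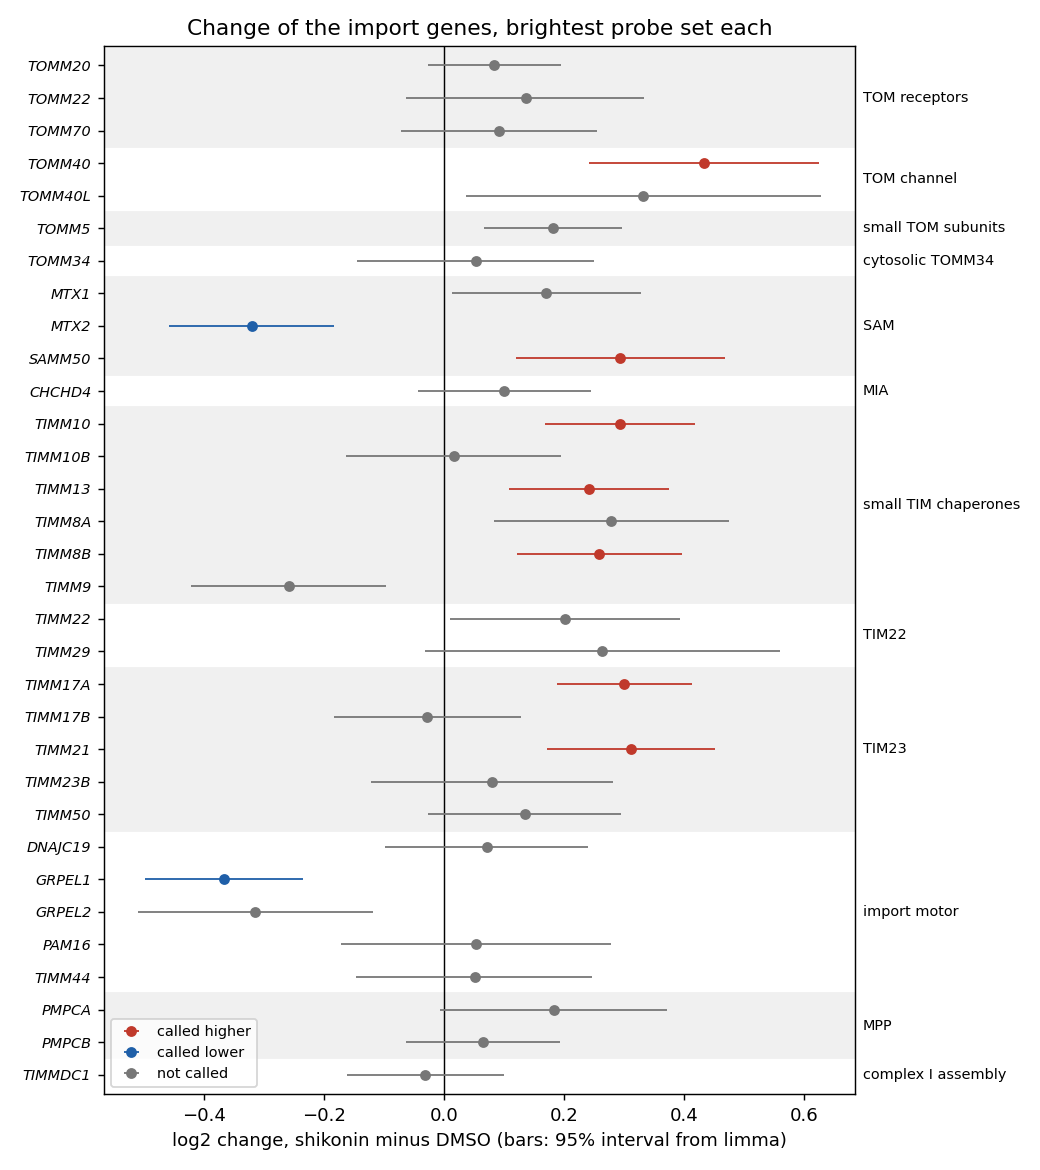
Change of the 32 import genes (log2 scale, shikonin minus DMSO, brightest probe set per gene), ordered by role; points are limma estimates, bars their 95% intervals, red called higher, blue called lower, grey not called. The called genes run from -0.37 for GRPEL1 to 0.43 for TOMM40.

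Neither gene of the TIM22 carrier translocase passed. TIMM22, its channel, had 941 and 929 in DMSO and 1058 and 1094 after shikonin, a log2 change of 0.20 with groups that did not overlap (adjusted p = 0.185). The other probe sets of TIMM22 changed by 0.32 and 0.39 and did not pass. TIMM29, which helps assemble TIM22, had 607 and 659 against 864 and 671. The shikonin arrays of TIMM29 differed widely and shikonin 2 was close to DMSO 2, so the change of 0.26 had a 95% interval from -0.03 to 0.56.

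In the TIM23 presequence translocase, 2 of 5 tested genes were called higher, a share that was not tested against that of bright genes either. TIMM17A, a core subunit beside the channel, had 8979 and 9058 in DMSO and 11021 and 11195 after shikonin. The groups were tight and apart, and TIMM17A was 1.23-fold higher (log2 change 0.30, SE 0.050, adjusted p = 0.00692). The call held without any of the 4 arrays, with adjusted p between 0.0209 and 0.0434, and a second probe set was called too (log2 change 0.36, adjusted p = 0.0093). Both end in _s_at, and the dim remaining tested probe set (320 and 301 against 424 and 361) did not pass (log2 change 0.33, adjusted p = 0.205). TIMM17B, its paralogue encoded on the X chromosome, had 1977 and 1958 against 1903 and 1957. Its log2 change was -0.03, with a 95% interval from -0.18 to 0.13 that lies below the interval of TIMM17A, 0.19 to 0.41; the difference itself was not tested.

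TIMM21, a subunit that links TIM23 to the TOM complex and to respiratory chain assembly, had 4360 and 4230 in DMSO and 5534 and 5141 after shikonin. Both shikonin arrays were higher, by a log2 change of 0.31 (SE 0.062, adjusted p = 0.0156), and its other probe set was called as well (0.40, adjusted p = 0.0173). On the brightest probe set the call was lost without DMSO 2 (0.0556) or shikonin 1 (0.0959). TIMM50, the presequence receptor of TIM23, had 4141 and 4330 against 4941 and 4377. Only shikonin 1 stood clearly above the controls, and the change of 0.14 did not pass (adjusted p = 0.290). The channel gene TIMM23 could not be tested by itself, since its single-gene probe set read 7.78 and 50.3 in DMSO and 22.6 and 5.83 after shikonin and lay below the 40th percentile of 3 arrays. Its near-identical copy TIMM23B changed by 0.08 with overlapping groups on its single-gene probe set. The 3 probe sets listed for TIMM23 and TIMM23B together, which fall outside the rule and were added after their values were seen, changed by 0.25, 0.16 and 0.14, and the brightest of them passed (6736 and 6667 against 7864 and 8123; adjusted p = 0.0193).

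The import motor held the lowest value among the import genes, and it lay in the nucleotide exchange factors. GRPEL1 releases ADP from the mitochondrial HSP70 so that it can bind a precursor again. It had signals of 5753 and 5758 in DMSO and 4590 and 4337 after shikonin. The shikonin arrays were clearly lower, by a log2 change of -0.37 (SE 0.058, adjusted p = 0.00565). The second GRPEL1 probe set fell further, from 4552 and 4860 to 3160 and 3059 (log2 change -0.60, adjusted p = 0.000724). The call held without any of the 4 arrays, at log2 changes of -0.41 to -0.33 and adjusted p of 0.0127 to 0.0340.

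GRPEL2, the paralogue of GRPEL1 that has been linked to redox-stressed mitochondria, lay on the same side. Its brightest probe set had 1837 and 1621 in DMSO and 1347 and 1426 after shikonin, a log2 change of -0.31 that missed the threshold (SE 0.086, adjusted p = 0.0543). With 1 array left out, the log2 change of this probe set lay between -0.40 and -0.23. GRPEL2 passed under the stricter filter (0.0344), with replicate number as a block (0.0206) or as its probe set mean (-0.48, adjusted p = 0.0245). It did not pass with no filter on dim probe sets (0.102) or under quantile normalization (-0.29, adjusted p = 0.0795). Its dimmer probe set passed with all arrays, at 528 and 490 against 287 and 359 (log2 change -0.65, adjusted p = 0.0258). On both probe sets both shikonin arrays lay below both DMSO arrays. The other motor genes did not pass: TIMM44, which tethers HSP70 to the channel, lay at 0.05, and the J-domain pair PAM16 and DNAJC19, which controls the ATPase of HSP70, at 0.05 and 0.07. TIMM44 and PAM16 had overlapping groups. DNAJC19 did not (1642 and 1758 against 1759 and 1810), and its dimmer probe set, at 532 and 558 against 697 and 657, changed by 0.31 without passing (adjusted p = 0.108); the mean of both gave 0.19.

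The processing peptidase MPP cuts off presequences in the matrix and consists of PMPCA and PMPCB. PMPCA had 1827 and 2092 in DMSO and 2154 and 2288 after shikonin, and PMPCB 4249 and 4307 against 4473 and 4478. The shikonin arrays were the higher in both genes, by log2 changes of 0.18 and 0.07 that did not pass (adjusted p = 0.221 and 0.540). A dim second probe set of PMPCB ran against the bright one, from 104 and 62.7 to 24.0 and 38.3, without passing (log2 change -1.17, adjusted p = 0.134). TIMMDC1, which resembles the TIMM17 and TIMM23 proteins but assembles respiratory complex I, lay at -0.03 with overlapping groups.

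Further probe sets were used to see how far these values hold within a gene. Of 32 tested genes 18 had at least 1 further tested probe set, 21 in all, and 19 of these had the sign of the brightest one. The exceptions were TIMM44 (-0.04 against 0.05) and PMPCB. Of the 9 called genes 6 had further tested probe sets, and in 4 of them (TIMM10, TIMM17A, TIMM21 and GRPEL1) another probe set was called in the same direction. TOMM40, TIMM13 and MTX2 rest on a single tested probe set each. For 6 of the 9 called genes the brightest probe set ends in _s_at, which marks probes shared among transcripts.

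**Figure D3:**
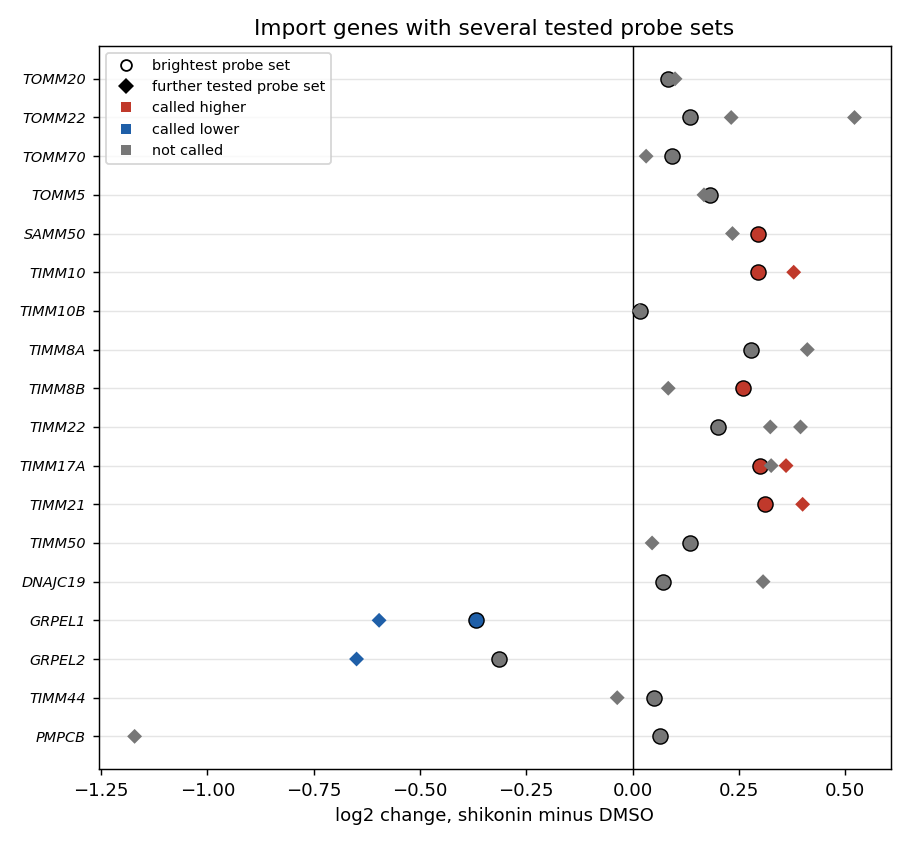
Change of each tested probe set (log2 scale, shikonin minus DMSO) for the 18 import genes that have several; circles are the brightest probe set, diamonds the further ones, red called higher, blue called lower, grey not called. Diamonds lie on the same side of 0 as the circle except for TIMM44 and PMPCB, and GRPEL1 and GRPEL2 lie to the left on all of their probe sets.

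**Figure D4:**
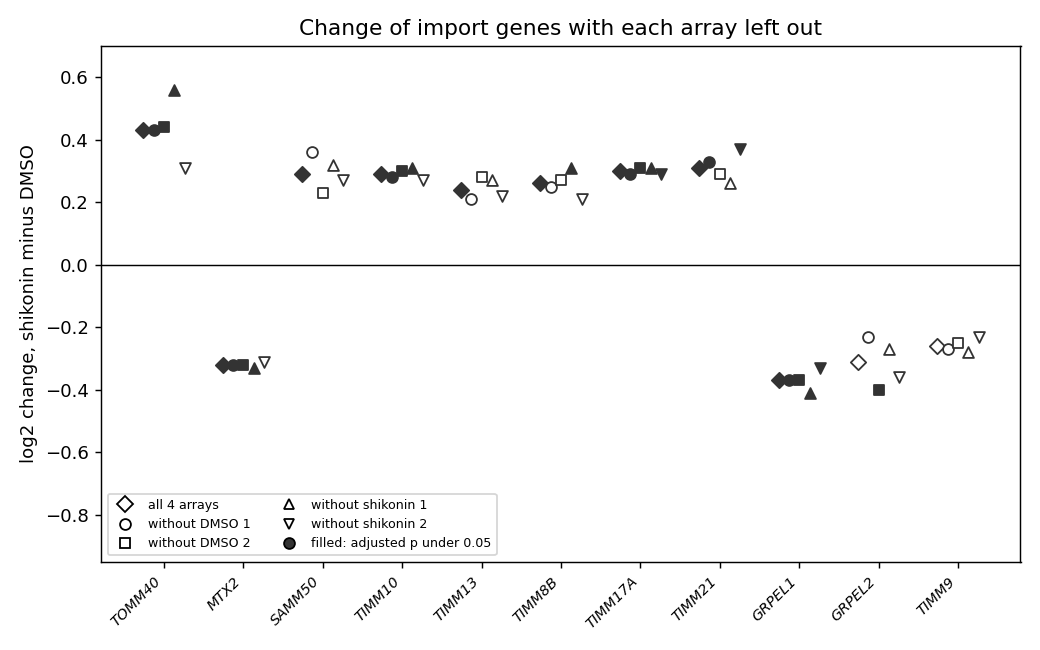
Change (log2 scale, shikonin minus DMSO) of the 9 called import genes and of GRPEL2 and TIMM9, with all 4 arrays and with each array left out; filled symbols have a limma adjusted p under 0.05, open symbols do not. TIMM17A and GRPEL1 stay filled throughout, SAMM50 and TIMM13 are open whenever an array is left out, and no gene crosses 0.

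The promoters of the import genes were searched for short motifs of factors known for stress responses or for mitochondrial genes. Promoter windows of 250 bases before to 50 after the gene start were found in RefSeq (GRCh38.p14) for 28 of the 32 genes, and motifs were searched on both strands. GRPEL1, GRPEL2, TIMM8B and TOMM5 were not among them, so 2 of the 9 called genes were not searched. Shown first are the windows of TIMM10 and TIMM13, small TIM chaperone genes that were both called higher, then those of SAMM50 and MTX2, subunits of SAM called in opposite directions. Capitals mark motif matches.
TIMM10 (chr11:57530705-57531004, minus strand): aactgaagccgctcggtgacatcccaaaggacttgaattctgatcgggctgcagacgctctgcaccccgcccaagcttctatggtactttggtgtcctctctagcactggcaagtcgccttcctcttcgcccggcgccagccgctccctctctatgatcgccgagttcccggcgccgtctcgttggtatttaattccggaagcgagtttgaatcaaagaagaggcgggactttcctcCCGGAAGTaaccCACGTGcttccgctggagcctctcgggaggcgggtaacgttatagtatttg
TIMM13 (chr19:2427537-2427836, minus strand): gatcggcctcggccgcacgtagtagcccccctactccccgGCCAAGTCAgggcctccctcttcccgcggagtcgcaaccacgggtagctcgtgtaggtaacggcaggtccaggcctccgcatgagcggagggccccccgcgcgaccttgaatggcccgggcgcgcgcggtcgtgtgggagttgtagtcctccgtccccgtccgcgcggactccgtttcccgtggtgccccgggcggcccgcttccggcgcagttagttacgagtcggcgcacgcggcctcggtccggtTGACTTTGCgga
SAMM50 (chr22:43955192-43955491, plus strand): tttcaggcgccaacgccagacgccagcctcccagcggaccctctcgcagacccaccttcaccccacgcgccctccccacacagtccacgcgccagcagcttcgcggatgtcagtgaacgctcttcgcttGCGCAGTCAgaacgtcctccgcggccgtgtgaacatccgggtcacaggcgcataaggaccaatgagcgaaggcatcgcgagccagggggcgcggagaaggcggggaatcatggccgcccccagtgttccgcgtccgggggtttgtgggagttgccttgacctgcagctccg
MTX2 (chr2:176269192-176269491, plus strand): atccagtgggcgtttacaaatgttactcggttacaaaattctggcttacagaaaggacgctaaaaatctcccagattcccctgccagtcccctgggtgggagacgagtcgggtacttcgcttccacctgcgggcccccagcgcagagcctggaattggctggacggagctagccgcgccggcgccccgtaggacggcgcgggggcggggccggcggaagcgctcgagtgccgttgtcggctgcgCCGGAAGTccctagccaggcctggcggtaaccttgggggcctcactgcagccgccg

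The capitals in TIMM10 are a site for ETS factors (CCGGAAGT, first base at -13 from the gene start) and an E-box (CACGTG, at -1), the site of MYC and related factors. In MTX2 they are an ETS site (at -6), and in TIMM13 and SAMM50 they match the core of the antioxidant response element (TGACNNNGC), the site of NRF2. TIMM10, called higher, and MTX2, called lower, thus both hold an ETS match. Over the 28 import promoters, 7 held the ETS site (25%, against 6.19% of 15842 protein-coding promoters of the same length). The other holders, TIMM10B, TIMM29, TIMMDC1, TOMM20 and TOMM70, were not called. The NRF1 site core GCGCNTGCG was held by 8 (28.6% against 11.0%). Of these, TOMM40 was called higher, and CHCHD4, PAM16, TIMM29, TIMM50, TIMM9, TOMM20 and TOMM34 were not called. The antioxidant element core was found in 6 (21.4% against 14.3%). Among them SAMM50, TIMM13 and TIMM21 were called higher, and PAM16, TIMM10B and TIMM17B were not called. The YY1 site AAGATGGCG was found in 3 (PMPCA, TIMM50 and TOMM40L, 10.7% against 2.74%) and the E-box in 3 (10.7% against 8.88%). The amino acid response element TGATGNAA was found in 2 (PMPCB and TIMM22, 7.14% against 2.53%). The heat shock element GAANNTTC and the cyclic AMP response element TGACGTCA were found in none of these windows (5.56% and 2.59% of all), and 6 import promoters held no match. No match overlapped that of another motif. A match says only that the letters are present, and these shares were not tested.

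A broader list of mitochondrial genes outside the TIM and TOM families, here called partners, was also read. It was not limited to genes with a known part in import, and 48 of its genes were tested. Of these, 7 were called higher and 2 lower (14.6% and 4.17%, against 5.05% and 6.65% of all genes), with a median log2 change of 0.11. The genes called lower were CLPX (log2 change -0.30, limma adjusted p = 0.0231) and OMA1 (-0.33, adjusted p = 0.0281). The partners are bright too, and 11.3% of genes at least as bright as the median import gene were called higher. The partner list was chosen with earlier results of these data known, so its shares are not independent of them. HSPA9, the HSP70 that drives the motor, had 9655 and 9336 in DMSO and 11519 and 11594 after shikonin (log2 change 0.28, SE 0.051, adjusted p = 0.00971). A dimmer probe set passed (log2 change 0.33, adjusted p = 0.0332), while another missed the threshold (0.21, adjusted p = 0.0536). HSPA9 and its exchange factor GRPEL1 were thus called in opposite directions, although HSPA9 missed the threshold without shikonin 2 (0.053). DNLZ, a small protein that keeps HSPA9 soluble, had 583 and 608 against 915 and 1111, the largest change of the list (0.75, adjusted p = 0.0045). The matrix chaperonin, which folds imported proteins, was higher in both of its parts. HSPE1 had 15825 and 14991 against 22860 and 23433 (log2 change 0.59, adjusted p = 0.000225). HSPD1 had 30664 and 33463 against 37697 and 39239 (0.26, adjusted p = 0.0173) and did not pass when DMSO 1 (0.0701), shikonin 1 (0.0501) or shikonin 2 (0.102) was left out. The 3 further HSPD1 probe sets were all called higher, with log2 changes of 0.36, 0.53 and 1.09, and the mean of all 4 gave 0.56. MTCH1, an outer membrane protein of the carrier family, and TMEM126A, an inner membrane protein, changed by 0.35 and 0.32 (adjusted p = 0.00337 and 0.00935). BCS1L was called higher too (0.34, adjusted p = 0.028). GFER, the oxidase that recharges CHCHD4, was dim (177 and 246 against 203 and 300) and did not pass (log2 change 0.23, adjusted p = 0.605).

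Other mitochondrial genes also had medians above 0, but smaller shares of them were called. Of 75 mitochondrial ribosome genes 12 were called higher (16%) and of 72 respiratory chain and ATP synthase genes 5 (6.94%), and none of either was called lower. The share called higher was 5.05% over all genes and 11.3% among genes at least as bright as the median import gene. For genes called lower these shares were 6.65% and 8.63%. Their median log2 changes were 0.12 and 0.08, and 82.7% and 84.7% of them lay above 0, against 81.2% of the import genes. The import genes ran from -0.37 to 0.43 with a median absolute change of 0.18, the ribosome genes from -0.25 to 0.78 (0.14) and the respiratory chain genes from -0.35 to 0.40 (0.09). These differences between groups of genes were not tested.

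**Figure D5:**
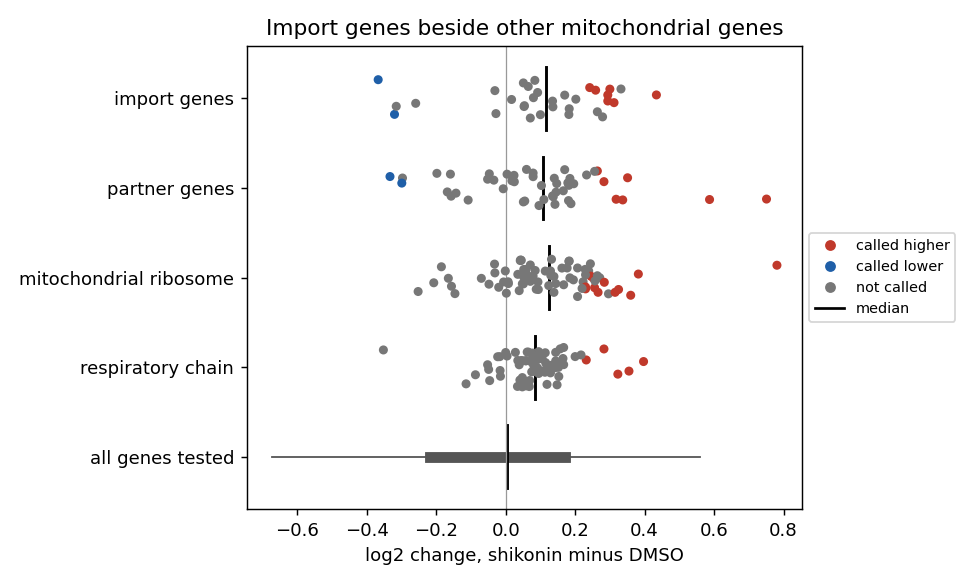
Change of each gene (log2 scale, shikonin minus DMSO) in the 32 import genes, 48 partner genes, 75 mitochondrial ribosome genes and 72 respiratory chain genes, with vertical lines at the medians; for all 13554 genes the thick bar covers the 25th to 75th and the thin line the 5th to 95th percentile. The medians of the first 4 rows lie between 0.08 and 0.12, and that of all genes at 0.003.

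In these calls the variance was modelled as a function of signal. With 1 common variance prior, limma passed none of the 32 import genes (smallest adjusted p 0.209), although 9 had an unadjusted p under 0.05, against 16 in the model used. Without DMSO 1, DMSO 2, shikonin 1 or shikonin 2, the import genes called higher numbered 4, 3, 4 and 2 and those called lower 2, 3, 2 and 1.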

How the data were processed

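RNA of U937 cells was labelled by 3'-biased amplification and hybridized to 1-colour Affymetrix U133 Plus arrays, per the labels' protocols. The values are the authors' deposited probe set intensities on a linear scale, scaled to a common level (mean 500.1 on every array after trimming 2% at each end). The summarising software was not given in the sources used here. Precision is limited by the number of arrays.

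Intensities were converted to log2(signal + 9.94), the 20th percentile of all values. Controls were left out, as were the dimmest 40% of the others by mean log2 value, leaving 32768 probe sets. Groups were compared, two-sided, with limma 3.58.1 in R 4.3.3 (eBayes with trend), and p-values were adjusted by Benjamini-Hochberg over these probe sets (threshold 0.05). The procedure was tested on simulated data, but no outcome is reported here, so this lends no weight to the calls. Each gene is given by its brightest probe set with a single symbol in the platform annotation. Folds on this scale understate dim genes. Intervals come from the same model. All import genes are named, with HMOX1, GFER and all called partners. The plan had named only the 6 called partners of smallest p, HSPA9, HSPD1, HSPE1 and GFER. BCS1L, CLPX and OMA1 were added later. Members and lists were chosen with earlier results of these data known. Alternatives concerned pseudocount, filter, variance prior, normalization, probe set choice, a replicate block and each array left out.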

Additional observations from a re-analysis of the deposited data

How the results depend on the processing

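Pseudocounts of 1 and 35.95 left all counts of calls within 1.5 times. With a single variance prior, import, partner and all genes called numbered 0 in each direction (unadjusted p under 0.05: 9, 8 and 2417 genes). Without the filter on dim probe sets, 4 import genes were called higher, 0 partners lower (22 had an unadjusted p under 0.05) and 350 of all genes higher, and the import median was 0.100. With the lowest 60% left out, 4 import genes were called lower. Quantile normalization gave a median of 0.105. Gene means gave 5 import genes called lower, 1 partner lower and a median of 0.135. Without _x_at and _s_at probe sets, which left 25 import genes, 2 were called higher, with a median of 0.080, and 4 partners were called higher.

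Leaving out 1 array, with the lone sample of a group assumed to vary like the others, gave 2 to 4 import genes called higher, 1 to 3 lower and a median of 0.095 to 0.140. Partners numbered 4 to 6 higher and 0 to 2 lower, and all genes 303 to 443 and 592 to 676. The labels number the samples, but the deviations of same-numbered arrays correlated at only 0.0216, so the numbers were not taken as pairs. With the replicate block, 4 import genes were called lower, 13 partners higher and 1234 of all genes higher.

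Log2 changes that turned sign were those of TOMM20 (-0.01, quantile normalization), PMPCB (-0.55, adjusted p = 0.0453, gene means, which include its dim probe set) and TIMM44 (-0.04 without _s_at probe sets); TOMM34 (-0.03) and TIMM10B (-0.02) without DMSO 1; and TIMMDC1 (-0.07 to 0.01), PAM16 (-0.06 to 0.17), TIMM44 (-0.04 to 0.14) and GFER (-0.04 to 0.51), each with its range over the 4 arrays left out, without shikonin 2. Apart from PMPCB, none of these passed; the cause was not tested.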

Other observations

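Some import genes share their start region with a gene on the opposite strand, and these neighbours were read as well, a choice made after the import genes' values were seen. In RefSeq (GRCh38.p14), 10 of the 28 import genes with a promoter entry had a protein-coding neighbour on the other strand whose start lay within 1000 bases, and all 10 neighbours had a tested probe set. Of these neighbours, 2 were called, near the background of 11.7% of all genes and 18.6% of genes at least as bright as the dimmest import gene. ENTR1, the neighbour of PMPCA and a protein of endosomal sorting, had 1417 and 1472 in DMSO and 1014 and 1048 after shikonin (log2 change -0.48, SE 0.081, adjusted p = 0.00706), while PMPCA changed by 0.18 and did not pass. PQBP1, the neighbour of TIMM17B and a splicing-related protein, had 3666 and 3551 against 4229 and 4216 (0.23, SE 0.059, adjusted p = 0.0455), while TIMM17B changed by -0.03. TIMM9 and its neighbour KIAA0586, a centrosomal protein, were both lower without passing, at -0.26 and -0.56 (adjusted p = 0.0554 and 0.0573).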
